A study of Mus musculus with 4 samples.

Results

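The genes described here are 6 that take part in removing organelles from lens fibre cells, namely *Dnase2b*, *Bnip3l*, *Bnip3*, *Fundc1*, *Plaat1* and *Plaat3*. They were chosen by name, for their known roles in nuclear DNA breakdown, mitophagy and phospholipase-driven organelle loss, with earlier results of these data known. All 6 were found among the 56748 genes of the deposited table, and all 6 were among the 15997 genes tested. RNA was sequenced from whole lenses of mice between 10 and 12 days of age, with 2 libraries of *Fsp1-cre;Pdgfrb+/D849V* lenses (mutant) and 2 libraries of control lenses. The mutant mice carried 1 *Pdgfrb* allele with the activating D849V change, whose expression depends on Cre under the *Fsp1* (*S100a4*) promoter, which is not specific to the lens. The paper describes robust Cre reporter activity in the lens epithelium at an age beyond that of these mice, and cataract later still. It assumes that the mutant receptor is expressed once Cre is induced. Both control libraries are labelled *Fsp1-cre;Pdgfrb+/+*, whereas the study's methods describe control pools that also held *Pdgfrb+/+* and *Pdgfrb+/D849V* lenses without Cre. The line was kept on the FVB/N strain and carried the *Rosa-LSL-tdTomato* reporter. Each library was made from the pooled lenses of several mice, so the replicates are pools. Every p-value rests on the spread between these pools, which the fit draws partly from the other genes tested.

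A lens fibre cell begins as an epithelial cell at the lens equator, elongates, fills with crystallins and then loses its nucleus, mitochondria, endoplasmic reticulum and Golgi, which leaves a centre of the lens free of bodies that scatter light. Nuclear DNA is cut by DNase IIβ, the acid nuclease of fibre cell lysosomes encoded by *Dnase2b*, and mice without it keep undigested DNA in the fibres and have cataracts. Mitochondria can be taken up by autophagy through receptors in their outer membrane that bind ATG8 proteins, among them BNIP3L (NIX), BNIP3 and FUNDC1, and BNIP3L is needed for organelle loss in mouse fibres. Phospholipases of the PLAAT family move from the cytosol to organelle membranes and break them down, which for PLAAT3 was shown in the mouse lens and for PLAAT1 in the fish lens, downstream of the lens transcription factor HSF4.

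Promoter windows of these genes are shown because regulators named for them act through short DNA words: HSF4 through the heat shock element, and hypoxia-inducible factors (HIF), known to drive *Bnip3*, through the hypoxia response core. RefSeq windows of GRCm38.p6, from 250 bases before to 50 bases after a start site, were at hand for 5 of the 6 genes, with 7 windows in all, and *Bnip3l* had no entry. Each was searched on both strands for GAANNTTC, a heat shock element, which reads the same on both strands, and for ACGTG, the hypoxia response core, which also lies within the E-box CACGTG. The capitals mark the match in the 3 windows that held a match, each printed 5′ to 3′ on the strand of its gene. The *Dnase2b* window is chr3:146615549-146615848 on the minus strand, the *Bnip3* window is chr7:138909457-138909756 on the minus strand, and the *Plaat1* window, at the upstream of 2 starts, is chr16:29209445-29209744 on the plus strand.
Dnase2b: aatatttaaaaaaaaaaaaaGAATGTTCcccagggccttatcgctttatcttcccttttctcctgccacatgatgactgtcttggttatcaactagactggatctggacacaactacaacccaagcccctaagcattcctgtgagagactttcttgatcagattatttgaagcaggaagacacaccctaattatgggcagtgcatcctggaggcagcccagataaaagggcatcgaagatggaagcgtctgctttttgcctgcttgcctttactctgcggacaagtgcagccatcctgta
Bnip3: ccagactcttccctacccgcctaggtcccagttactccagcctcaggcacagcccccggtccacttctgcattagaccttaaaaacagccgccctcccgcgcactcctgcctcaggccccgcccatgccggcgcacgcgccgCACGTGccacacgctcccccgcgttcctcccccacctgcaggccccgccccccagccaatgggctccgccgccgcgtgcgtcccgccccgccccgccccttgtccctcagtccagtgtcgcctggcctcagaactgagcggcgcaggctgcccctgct
Plaat1: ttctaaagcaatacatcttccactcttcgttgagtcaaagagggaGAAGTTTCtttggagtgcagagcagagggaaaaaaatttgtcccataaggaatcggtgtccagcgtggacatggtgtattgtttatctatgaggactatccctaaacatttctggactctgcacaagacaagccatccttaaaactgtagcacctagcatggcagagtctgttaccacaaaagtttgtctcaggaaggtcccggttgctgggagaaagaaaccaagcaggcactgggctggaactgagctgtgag
*Dnase2b* held GAATGTTC from position -230 relative to the start site, and 1 of the 2 *Plaat1* windows held GAAGTTTC from position -205. *Bnip3* held ACGTG on both strands, as the E-box CACGTG from position -108, in a window with 71.7% G and C, against 45.0% in that of *Dnase2b*. The windows of *Fundc1* and *Plaat3* held neither word. Of all 32851 promoter windows, 7.86% held GAANNTTC and 19.6% held ACGTG, so both words are common, and a match is a description of the letters.

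Levels are given as deposited FPKM, fragments per kilobase of gene over a divisor set for each library. This corrects for gene length, so that genes can be set side by side. The divisor was not the total of recovered reads. As a share of that total it was lowest for mutant replicate 1 (0.944), then control replicate 2 (0.987), control replicate 1 (1.048) and mutant replicate 2 (1.049). The deposited values had a median-ratio factor of 1.006 in every library, so they were already level on that measure. The libraries held between 18561682 and 18878768 recovered reads, with 58.6% to 62.9% of them on 16 crystallin genes. Folds are mutant over control on the log2(FPKM + 0.1) scale, with p-values from limma adjusted by the Benjamini-Hochberg method over the 15997 genes tested and a threshold of 0.05. Positions of genes are those of the deposited table, for which the submitters' processing notes name mm39. With whole lenses, fewer cells of a type and less RNA per cell cannot be told apart.

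*Dnase2b* (ENSMUSG00000028185, chromosome 3, 146286740 to 146321351, minus strand) was, with *Plaat3*, at the top of the 6 genes in level. It measured 92.8 and 74.0 FPKM in mutant replicates 1 and 2 and 68.6 and 79.0 FPKM in control replicates 1 and 2, from 3724 to 4618 reads a library. The groups overlapped, since mutant replicate 2 lay below control replicate 2, and mutant replicate 1 was the highest of the 4. The group means were 83.4 ± 13.3 FPKM in mutant and 73.8 ± 7.30 FPKM in control lenses (SD, n = 2 each), and the difference of 9.61 FPKM was smaller than the SD of the mutant pair. The log2 fold was 0.17 (SE 0.14, limma 95% interval -0.20 to 0.54, limma adjusted p = 0.811), and it ran from 0.0070 without mutant replicate 1 to 0.33 without mutant replicate 2. *Uox*, on the opposite strand, spans all 34612 bases of *Dnase2b* and was counted at 70 to 137 reads, and whether counting used strand is not given in the sources used here.

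The ubiquitous relative *Dnase2a*, which encodes the acid nuclease of other cells' lysosomes and was picked for comparison after its values were seen, had 11 to 22 reads a library. *Dnase2b* FPKM was 357 to 654 times that of *Dnase2a*, with the lowest and the highest ratio both in control lenses. Of 12 other nucleases, 9 were tested and none passed the adjusted test. *Aen*, an exonuclease of apoptosis, was the most abundant of them at 3.07 and 3.66 FPKM in mutant and 3.13 and 3.09 FPKM in control lenses. *Dffa*, the inhibitor of the caspase-activated DNase, measured 1.01 and 1.02 FPKM in mutant and 1.13 and 1.32 FPKM in control lenses, and *Dffb*, that DNase itself, 0.898 and 0.711 against 0.590 and 0.660 FPKM. *Dffa* was lower and *Dffb* higher in both mutant libraries than in both control libraries, with log2 folds of -0.24 (SE 0.16) and 0.31 (SE 0.21) and a limma adjusted p of 0.811 for each. *Trex1*, *Trex2* and *Dnase1l3* were listed at 0 in all 4 libraries.

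The lamina and envelope that enclose the DNA are taken apart as the nucleus is lost. All 11 genes of that list were tested, 4 with a log2 fold above 0 and 7 below, with a median of -0.05, and none passed the adjusted test. *Banf1*, which tethers DNA to the envelope, was the most abundant at 16.2 and 14.6 FPKM in mutant and 15.0 and 13.9 FPKM in control lenses. *Lmnb1*, for lamin B1, measured 2.33 and 3.28 FPKM against 3.65 and 3.02 FPKM, and *Emd*, for the inner membrane protein emerin, 3.05 and 2.90 against 2.98 and 3.19 FPKM. The groups overlapped for each of these 3 genes. Without overlap 3 of the 11 genes were lower in mutant lenses, beside 18.3% of all genes tested, and 1 was higher, beside 18.2%.

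*Bnip3l* (ENSMUSG00000022051, chromosome 14, 67222688 to 67246326, minus strand) was the most abundant of the 3 mitophagy receptors. It measured 54.3 and 52.6 FPKM in mutant and 51.6 and 57.4 FPKM in control lenses, from 3738 to 4086 reads. Both mutant values lay between the control values. That depended on the scaling. When scaled to total reads, *Bnip3l* measured 51.3 and 55.1 FPKM in mutant and 54.0 and 56.7 FPKM in control lenses. On that scale mutant replicate 1 lay below both control libraries, and the groups still overlapped. The means were 53.5 ± 1.25 and 54.5 ± 4.16 FPKM (SD, n = 2 each), with a log2 fold of -0.03 (SE 0.10, limma 95% interval -0.27 to 0.22, limma adjusted p = 0.964). Of the 31-base words in its transcripts, 23.7% also lie in the pseudogene *Bnip3l-ps*, which was counted at 241 to 298 reads a library, so reads may have been split between them.

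*Bnip3* (ENSMUSG00000078566, chromosome 7, 138492565 to 138511248, minus strand) had the smallest unadjusted p-value of the 6 genes. It measured 17.2 and 16.0 FPKM in mutant and 11.7 and 12.5 FPKM in control lenses, from 695 and 709 against 516 and 523 reads. Both mutant libraries lay above both control libraries, and their counting intervals were apart as well, with the lowest mutant bound at 14.8 FPKM and the highest control bound at 13.6 FPKM (exact Poisson 95% intervals, which cover counting error only). The means were 16.6 ± 0.865 and 12.1 ± 0.573 FPKM (SD, n = 2 each), a ratio of 1.37 on the scale of the fit. The log2 fold was 0.45 (SE 0.10, limma 95% interval 0.20 to 0.70), and it did not pass after adjustment (limma adjusted p = 0.580, and 0.250 by limma's voom on the recovered reads). Without the filter on low values the limma adjusted p was 0.0245, in a fit where 32214 of 56748 genes were at 0 in every library. Of its 31-base words, 20.3% are shared with other genes, chiefly the pseudogenes *Gm16439*, *Gm6532* and *Gm9419*, each of which had at most 1 read in any library.

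*Fundc1* (ENSMUSG00000025040, chromosome X, 17422803 to 17438564, minus strand) was the least abundant of the receptors. It measured 4.17 and 4.04 FPKM in mutant and 3.74 and 4.17 FPKM in control lenses, from 171 to 186 reads. Control replicate 2 stood just above mutant replicate 1, so the groups overlapped. The means were 4.10 ± 0.0949 and 3.96 ± 0.308 FPKM (SD, n = 2 each), with a log2 fold of 0.05 (SE 0.12, limma 95% interval -0.24 to 0.35, limma adjusted p = 0.934).

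The ratio of *Bnip3l* to *Bnip3* FPKM, which does not depend on how libraries are scaled, was 3.16 and 3.29 in mutant and 4.40 and 4.59 in control lenses. The mutant libraries thus held less *Bnip3l* for each unit of *Bnip3* than either control library. The ratio of *Bnip3* to *Fundc1* was 4.13 and 3.96 in mutant and 3.13 and 3.002 in control lenses, again without overlap. Both ratios hold *Bnip3*, with a log2 fold of 0.45, beside -0.03 for *Bnip3l* and 0.05 for *Fundc1*. They thus restate the difference in *Bnip3* and are not separate observations. These ratios are a description, and their differences were not tested.

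**Figure D1:**
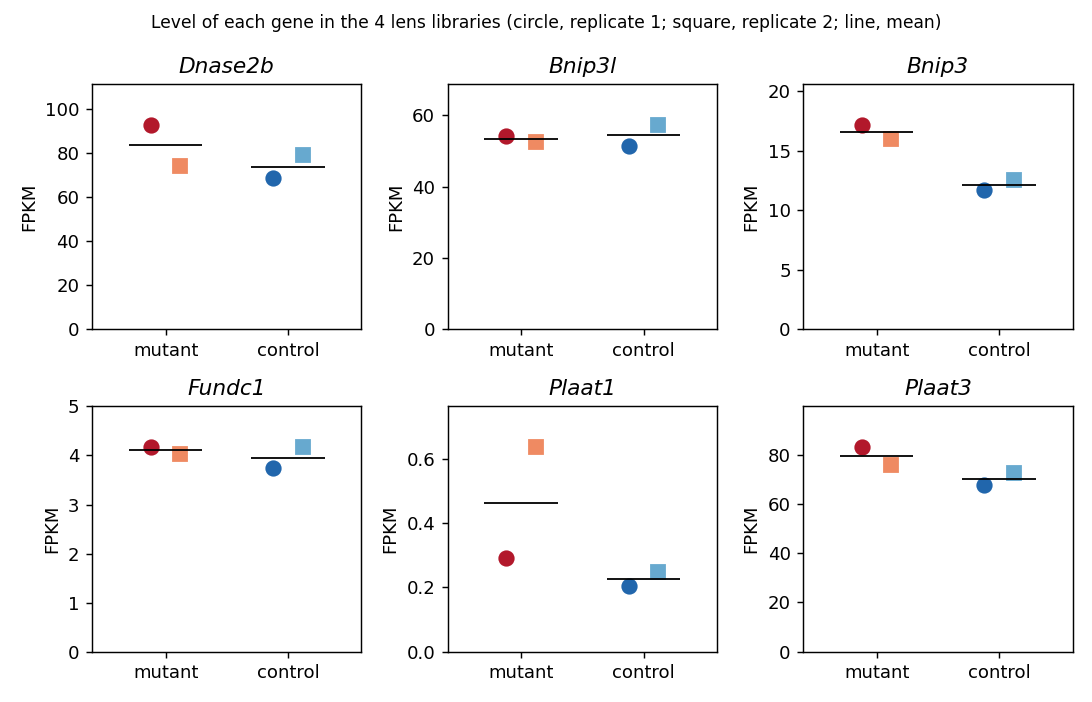
FPKM of the 6 genes by library, with 1 panel a gene and its own axis from 0. Points are the 2 mutant and the 2 control libraries and bars are group means. The mutant points lie above the control points for *Bnip3*, *Plaat1* and *Plaat3* and overlap with them for *Dnase2b*, *Bnip3l* and *Fundc1*.

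*Plaat3* (ENSMUSG00000060675, chromosome 19, 7534824 to 7565910, plus strand) stood beside *Dnase2b* in level. It measured 83.2 and 75.9 FPKM in mutant and 67.7 and 72.8 FPKM in control lenses, from 8414 to 9510 reads, the most reads of any of the 6. Both mutant libraries lay above both control libraries, by a small margin between mutant replicate 2 and control replicate 2. The means were 79.6 ± 5.11 and 70.2 ± 3.61 FPKM (SD, n = 2 each), with a log2 fold of 0.18 (SE 0.10, limma 95% interval -0.07 to 0.43, limma adjusted p = 0.811), and it was 0.11 without mutant replicate 1.

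*Plaat1* (ENSMUSG00000022525, chromosome 16, 29028447 to 29049283, plus strand) was near the limit of what these libraries could measure. It measured 0.290 and 0.637 FPKM in mutant and 0.203 and 0.248 FPKM in control lenses, from 17 and 41 against 13 and 15 reads. Both mutant values lay above both control values, and mutant replicate 2 was the highest. The counting interval of mutant replicate 1, 0.169 to 0.465 FPKM, overlapped that of mutant replicate 2, 0.457 to 0.865 FPKM, and those of both control libraries, 0.108 to 0.348 and 0.139 to 0.408 FPKM. The means were 0.464 ± 0.245 and 0.226 ± 0.0312 FPKM (SD, n = 2 each). The log2 fold of 0.72 (SE 0.40, limma 95% interval -0.31 to 1.75, limma adjusted p = 0.811) was 0.26 without mutant replicate 2 and 1.18 without mutant replicate 1. With a pseudocount of 1 it was 0.25, so its size depends on the pseudocount as well. *Plaat3* FPKM was 119 to 333 times that of *Plaat1*, with the lowest ratio in mutant replicate 2.

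By mean FPKM over the 4 libraries the order was *Dnase2b* (78.6 ± 10.4), *Plaat3* (74.9 ± 6.50), *Bnip3l* (54.0 ± 2.58), *Bnip3* (14.4 ± 2.65), *Fundc1* (4.03 ± 0.205) and *Plaat1* (0.345 ± 0.198; SD, n = 4 each). The first 2 did not differ beyond their spread, with *Dnase2b* at 0.974 to 1.12 times *Plaat3* and higher in 3 of 4 libraries. Every other pair of neighbours had ranges that did not meet, the closest being *Plaat3* at 1.27 to 1.53 times *Bnip3l*. Among all genes tested, *Dnase2b* and *Plaat3* stood at percentile 98.4, *Bnip3l* at 97.8, *Bnip3* at 92.6, *Fundc1* at 77.9 and *Plaat1* at 25.1. Each role therefore had a member among the most abundant lens transcripts, and the nuclease and the phospholipase that were highest were close to equal per unit of length. That rests on the deposited gene lengths, 2790 bases for *Dnase2b* and 6396 for *Plaat3*. Which transcripts the lens uses was not checked. In reads *Plaat3* was higher, at 8414 to 9510 against 3724 to 4618.

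None of the 6 genes passed the adjusted limma test, in which 0.0375% of all genes tested were called (4 higher and 2 lower in mutant lenses), and none passed with voom, which called 0.0875%. Both mutant libraries lay above both control libraries for 3 of the 6 (*Bnip3*, *Plaat1* and *Plaat3*), beside 18.2% of all genes tested, and for none did both lie below, beside 18.3%. At an unadjusted limma p under 0.05, 1 of the 6, *Bnip3*, was higher, beside 3.39% of all genes, and none was lower, beside 2.92%. The log2 fold was above 0 for 5 of the 6, beside 50.7% of all genes, and the median was 0.18, beside 0.0041 over all genes. These 6 genes are few, and their counts are given as a description. The 3 genes without overlap kept both mutant libraries above both control libraries when FPKM was rescaled by total reads or by reads outside crystallins.

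**Figure D2:**
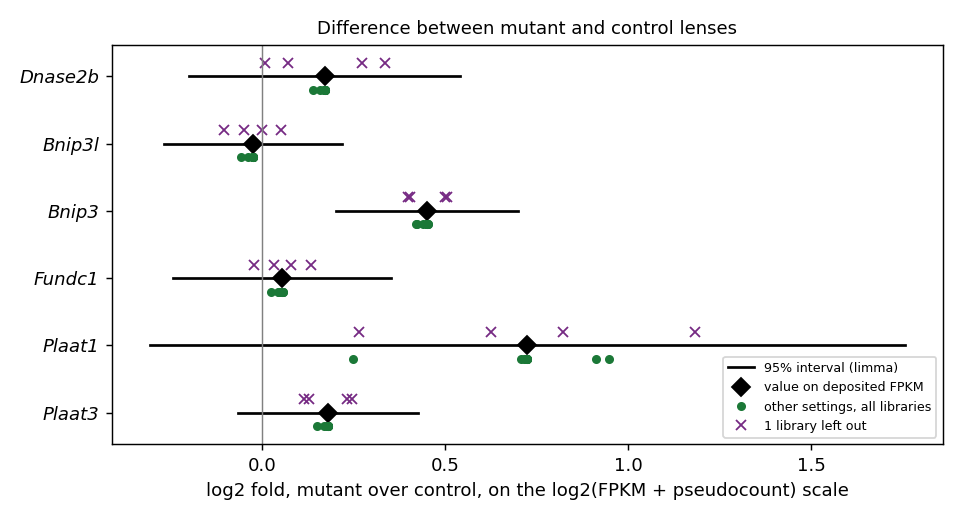
Log2 fold of each of the 6 genes, mutant over control, on the log2(FPKM + pseudocount) scale. Diamonds are limma estimates on the deposited FPKM, lines are their 95% intervals, crosses are fits without 1 library each, dots are the other settings tried on all libraries, and the vertical line is at 0. The interval of *Bnip3*, 0.20 to 0.70, does not reach 0 before adjustment, and the other 5 cross it.

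Other mitophagy genes did not share a direction. Of 21 listed, 20 were tested, 8 with a log2 fold above 0 and 12 below, with a median of -0.01, and none passed the adjusted test. *Optn*, for the autophagy adaptor optineurin, measured 12.3 and 13.1 FPKM in mutant and 9.17 and 10.9 FPKM in control lenses, without overlap (log2 fold 0.34, SE 0.12, limma adjusted p = 0.774). *Sqstm1*, for the adaptor p62, measured 34.1 and 30.6 against 24.5 and 28.4 FPKM, also without overlap (log2 fold 0.29, SE 0.12, limma adjusted p = 0.788). *Pink1*, the kinase that marks damaged mitochondria, was lower in both mutant libraries, at 21.3 and 22.9 against 25.1 and 23.2 FPKM (log2 fold -0.13, SE 0.10, limma adjusted p = 0.811). *Fkbp8*, another outer membrane receptor, measured 21.6 and 21.6 against 21.1 and 22.5 FPKM, and the groups overlapped.

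The ATG8 proteins, which the receptors bind on the growing autophagosome, were encoded by 5 tested genes, 4 with a log2 fold above 0 and none past the adjusted test. *Gabarapl1* was the most abundant at 119 and 94.9 FPKM in mutant and 90.0 and 110 FPKM in control lenses, with overlap. *Gabarap* measured 45.7 and 43.6 against 41.9 and 40.6 FPKM, without overlap (log2 fold 0.11, SE 0.08, limma adjusted p = 0.811), and *Gabarapl2* 12.9 and 12.2 against 12.5 and 13.1 FPKM, with overlap.

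The list of other phospholipid-breakdown enzymes had 19 genes, 15 of them tested, 12 with a log2 fold above 0 and 3 below. Both mutant libraries lay above both control libraries for 8 of the 15, beside 18.2% of all genes tested, and below for 1, beside 18.3%. At an unadjusted limma p under 0.05, 3 of the 15 were higher, beside 3.39% of all genes, and the median log2 fold was 0.13. None passed the adjusted test by limma or voom. *Pla2g7*, which encodes the secreted platelet-activating factor acetylhydrolase, was abundant at 120 and 117 FPKM in mutant and 75.1 and 94.1 FPKM in control lenses (log2 fold 0.50, SE 0.13, limma adjusted p = 0.687, voom adjusted p = 0.0917). *Alox15*, a lipoxygenase that oxidises fatty acids in membrane lipids and is thus no phospholipase, measured 6.74 and 5.72 against 3.63 and 4.40 FPKM (log2 fold 0.62, SE 0.15, limma adjusted p = 0.643). *Pla2g4a*, for the cytosolic phospholipase that frees arachidonic acid, measured 1.29 and 1.27 against 0.982 and 0.883 FPKM (log2 fold 0.42, SE 0.16, limma adjusted p = 0.787).

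For these 3 genes the mutant libraries were above the control libraries without overlap. *Lypla2*, a thioesterase of the lysophospholipase family, measured 8.93 and 7.71 against 7.44 and 6.58 FPKM, and *Pafah1b3*, a subunit of the intracellular platelet-activating factor acetylhydrolase, 10.1 and 9.91 against 8.44 and 9.99 FPKM. *Lypla2* was without overlap and *Pafah1b3* overlapped. The ratio of *Plaat3* to *Pla2g7* FPKM was 0.691 and 0.649 in mutant and 0.901 and 0.773 in control lenses, lower in both mutant libraries.

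Over the nuclease, lamina, mitophagy, ATG8 and phospholipid lists together, 60 of 68 genes were tested, 35 with a log2 fold above 0 and 25 below, with a median of 0.05. Both mutant libraries were above both control libraries for 16 of the 60, beside 18.2% of all genes tested, and below for 8, beside 18.3%, and none passed the adjusted test by limma or voom.

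**Figure D3:**
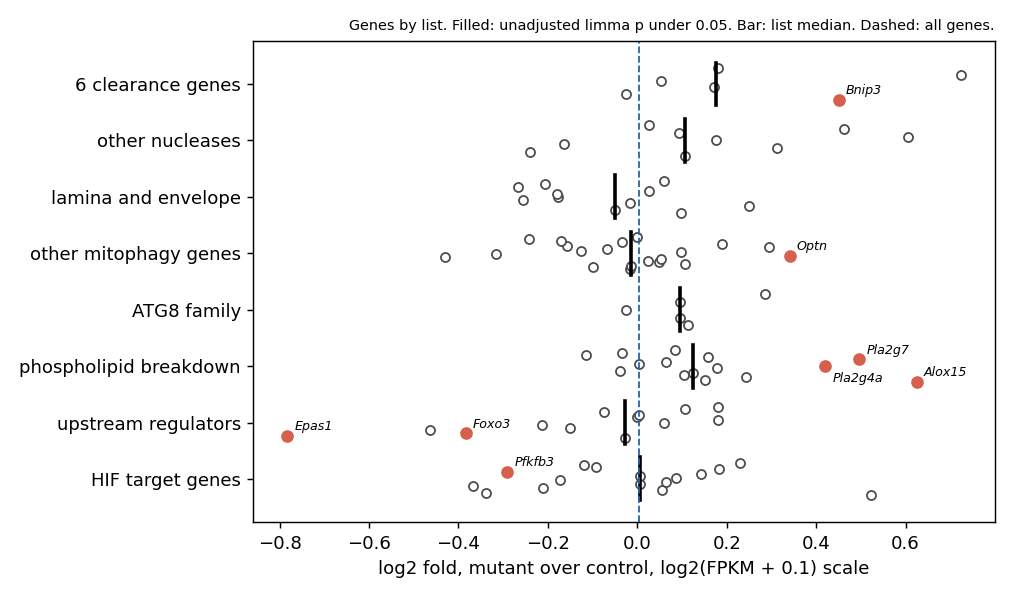
Log2 fold of each tested gene, mutant over control, on the log2(FPKM + 0.1) scale, by list. Filled points had an unadjusted limma p under 0.05 and carry their names, bars are list medians and the dashed line is the median of all genes tested. The filled points are *Bnip3*, *Optn*, *Pla2g7*, *Alox15* and *Pla2g4a* above 0 and *Epas1*, *Foxo3* and *Pfkfb3* below 0, and none passed after adjustment.

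Among 13 upstream regulators, 6 had a log2 fold above 0 and 7 below, with a median of -0.03, and none passed the adjusted test. Without overlap 4 of the 13 were lower in mutant lenses, beside 18.3% of all genes tested, and 2 were higher, beside 18.2%. At an unadjusted limma p under 0.05, 2 of the 13 were lower, beside 2.92%, and none was higher, beside 3.39%. *Hsf4* was the most abundant at 169.6 and 157.2 FPKM in mutant and 135.1 and 153.5 FPKM in control lenses, without overlap (log2 fold 0.18, SE 0.11, limma adjusted p = 0.811). Its log2 fold was 0.089 without control replicate 1 and 0.27 without control replicate 2. *Maf*, a fibre differentiation factor, measured 56.2 and 60.6 against 54.9 and 62.1 FPKM, and *Prox1*, another, 38.3 and 40.3 against 39.3 and 43.6 FPKM, both with overlap. *Foxo3*, a factor that can induce *Bnip3* and *Bnip3l*, measured 2.13 and 2.42 against 3.08 and 2.91 FPKM, lower in both mutant libraries (log2 fold -0.38, SE 0.13, limma adjusted p = 0.769).

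*Epas1*, for HIF-2α, measured 0.813 and 0.676 FPKM in mutant and 1.46 and 1.24 FPKM in control lenses, also lower in both mutant libraries (log2 fold -0.78, SE 0.19, limma adjusted p = 0.643), and its log2 fold was -0.43 with a pseudocount of 1. *Hif1a*, for HIF-1α, picked after its values were seen, measured 16.6 and 20.4 against 20.6 and 20.3 FPKM, with overlap. Transcripts that HIF is known to drive were split, with 9 of 16 above 0 and 7 below, and a median log2 fold of 0.01. *Ndrg1* measured 109 and 113 against 97.9 and 112 FPKM, with overlap. *Pgk1*, for a glycolytic kinase, measured 81.9 and 87.5 against 90.3 and 90.2 FPKM, and *Slc2a1*, for the glucose transporter GLUT1, 48.0 and 49.7 against 53.6 and 52.6 FPKM, both lower in both mutant libraries. *Pfkfb3*, a regulator of glycolysis, measured 3.59 and 3.88 against 4.45 and 4.72 FPKM (log2 fold -0.29, SE 0.11, limma adjusted p = 0.788). The log2 folds of the 16 genes ran from -0.37 to 0.52. Both mutant libraries lay above both control libraries for 3 of the 16, beside 18.2% of all genes tested. They lay below for 5, beside 18.3%. Whether HIF had a part in the value of *Bnip3*, a known HIF target, was not tested.

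The gene of these lists with the profile most like each of the 6 was found by the root mean square difference of log2 values centred on each gene's own mean over the 4 libraries, among 73 or 74 genes with a mean of at least 1 FPKM. For *Dnase2b* it was *Gabarapl1*, at 0.0487, with both highest in mutant replicate 1 and lowest in control replicate 1. For *Plaat3* it was *Hsf4*, at 0.0290, with *Vegfa* next at 0.0339. *Plaat3* and *Hsf4* had the order mutant replicate 1, mutant replicate 2, control replicate 2 and control replicate 1. *Bnip3*, *Pla2g7*, *Alox15* and *Sqstm1* had that order too. This order is that of the deposited FPKM and depends on the scaling. When scaled to total reads, mutant replicate 2 stood above mutant replicate 1 for *Plaat3* (79.6 and 78.5 FPKM) and *Bnip3* (16.8 and 16.3 FPKM). For *Bnip3l* it was *Emd*, at 0.0263, and for *Fundc1* it was *Kdm3a*, at 0.0168. *Bnip3* was nearest to *Map1lc3b*, for LC3B, at 0.0836, which measured 6.25 and 5.62 against 4.71 and 4.98 FPKM. *Plaat1* was nearest to *Optn*, at 0.352, a distance that is wide beside those of the other 5 genes. The profiles share 4 libraries only, so these distances describe them and carry no test.

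The pools differed in transcripts that mark the sex of the mice. *Xist*, made from the inactive X chromosome of females, measured 7.62 and 13.1 FPKM in mutant and 15.6 and 5.56 FPKM in control lenses, and *Eif2s3y*, from the Y chromosome, 7.10 and 4.82 against 3.02 and 7.13 FPKM. Mutant replicate 1 and control replicate 2 were thus alike, as were mutant replicate 2 and control replicate 1. Within these 2 pairs the ratio of mutant to control FPKM of *Bnip3* was 1.37 and 1.36, that of *Plaat3* 1.14 and 1.12, that of *Dnase2b* 1.18 and 1.08, and that of *Plaat1* 1.17 and 3.13. *Bnip3l* had 0.946 and 1.02 and *Fundc1* had 0.9997 and 1.08. Between libraries of the same replicate number, which were unlike in *Xist*, the deposited FPKM gave ratios further apart for all but *Plaat1*. They were 1.47 and 1.28 for *Bnip3*, 1.23 and 1.04 for *Plaat3*, and 1.35 and 0.937 for *Dnase2b*. *Plaat1* had 1.43 and 2.57, which were closer together. The pattern depended on the scaling. When scaled to total reads, *Plaat3* measured 78.5 and 79.6 FPKM in mutant and 70.9 and 71.8 FPKM in control lenses. *Bnip3* measured 16.3 and 16.8 against 12.3 and 12.4 FPKM. On that scale the ratios of both genes were further apart within the pairs alike in *Xist*. Whether the sex of the mice had a part in these values was not tested.

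**Figure D4:**
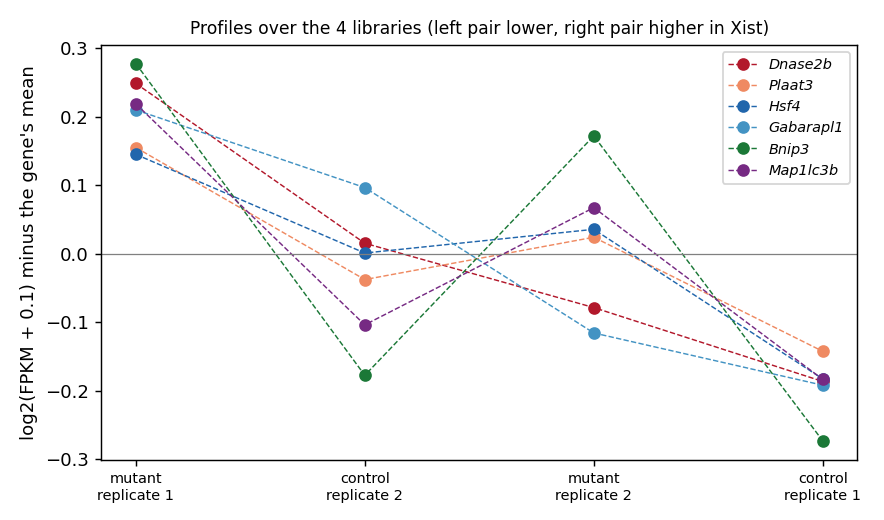
Log2(FPKM + 0.1) of *Dnase2b*, *Plaat3* and *Bnip3* and of the listed genes nearest to them, *Gabarapl1*, *Hsf4* and *Map1lc3b*, each centred on its own mean over the 4 libraries. The libraries stand on the horizontal axis, with the pair lower in *Xist* on the left, points are values and dashed lines join the points of a gene for the eye only. *Bnip3* and *Map1lc3b* are above 0 in both mutant libraries and below 0 in both control libraries, whereas *Dnase2b* and *Gabarapl1* are above 0 in the pair on the left and below 0 in the pair on the right.

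Transcripts of other cells were few. The 8 macrophage markers summed to 1.92 and 2.36 FPKM in mutant and 0.836 and 0.583 FPKM in control lenses. All 4 tested markers (*C1qa*, *C1qb*, *C1qc* and *Cd68*) were higher in both mutant libraries, beside 18.2% of all genes tested. They had at most 19 reads each, and *Adgre1* had 1 read or 0. Markers this low can pass the filter on mean FPKM through the mutant libraries alone, so the filter may have shaped that count. The 10 markers of endothelium and pericytes summed to 7.50 and 5.95 against 9.80 and 9.16 FPKM, and without overlap 4 of them were lower, beside 18.3% of all genes tested, and 1 was higher, beside 18.2%. The part of either in the values of *Bnip3* and *Plaat3* was not tested. Red cells also clear mitochondria through BNIP3L, and their markers summed to 25.2 and 17.2 against 34.9 and 21.6 FPKM, with overlap between the groups. Markers of lens fibres summed to 144019 to 167874 FPKM in mutant and 142494 to 164482 FPKM in control lenses, and those of lens epithelium to 148 and 176 against 165 and 170 FPKM, and both sums overlapped between groups. Within the fibre list, 7 of 11 tested markers had a log2 fold above 0, beside 50.7% of all genes tested, and 4 below. At an unadjusted limma p under 0.05, 2 of the 11 were lower, beside 2.92%, and none was higher, beside 3.39%. Without overlap 2 were lower, beside 18.3%, and 1 was higher, beside 18.2%. *Lgsn*, for the fibre protein lengsin, fell by the voom test, with 19.0 and 5.54 FPKM in mutant and 28.5 and 41.0 FPKM in control lenses (log2 fold -1.72, SE 0.58, limma adjusted p = 0.769, voom adjusted p = 0.00314). Whether the values of the 6 clearance genes move with it was not tested. *Lim2*, a fibre membrane gene, was listed at 0 in every library. Markers of retina summed to at most 3.18 FPKM, those of pigment epithelium and ciliary body to at most 1.39 FPKM, and those of fibroblasts and muscle to 16.0 and 14.6 against 12.9 and 13.8 FPKM. *Pdgfrb*, the altered gene, measured 2.36 and 2.16 against 2.25 and 1.79 FPKM (log2 fold 0.16, limma adjusted p = 0.837), and since the D849V change alters the protein, its level does not check the labels.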

How the data were processed

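RNA sequencing libraries from pooled mouse lenses, 2 mutant and 2 control, were grouped by their genotype labels. The authors' sequencing provider aligned reads with Hisat2, counted them with featureCounts and computed the deposited FPKM for 56748 genes, and the submitters' processing notes name mm39. Of its per-sample columns, 0 were left unused. Whole reads were recovered from FPKM and gene length, and 100% of values came out whole within 0.01 reads. The test took genes averaging 0.1 FPKM or more, on the log2(FPKM + 0.1) scale, and used limma 3.58.1 (lmFit, eBayes with a trend) in R 4.3.3, with Benjamini-Hochberg adjustment over 15997 genes. limma's voom on the recovered reads, with the deposited scaling, was the count-based alternative and called 14 genes. Other pseudocounts, filters, scalings, covariates and left-out libraries were tried too. The scripts were tested on simulated data. Poisson intervals on reads cover counting error only.

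The 6 genes and the gene lists were chosen with earlier results of these data known, so their counts support nothing beyond these libraries. From each list, the text names the 3 genes with the highest mean FPKM and every gene with an unadjusted limma p under 0.05, plus the gene most like each of the 6 in profile. *Dnase2a*, *Hif1a*, *Trex1*, *Trex2*, *Dnase1l3* and *Lim2* were added after their values were seen, and of the marker lists only sums and a few members are printed. Promoter sequences are from RefSeq (GRCm38.p6), a build other than that of the deposited positions, and shared words were counted over GRCm38 transcripts. Protein sequences were not analysed here.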

Additional observations from a re-analysis of the deposited data

How the results depend on the processing

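The 4 libraries, 2 a group, limit every result, and a fit without 1 library assumes that the lone library of its group varies like the other group. None of the 6 genes passed the adjusted test in any alternative except 1 with no filter on low values, where *Bnip3* (log2 fold 0.45) had a limma adjusted p of 0.0245. That fit called 1455 genes in all, with 32214 of 56748 genes at 0 in every library, and 2 other genes of the lists, *Alox15* (log2 fold 0.62, adjusted p = 0.00385) and *Pla2g7* (log2 fold 0.50, adjusted p = 0.00289). Over its alternatives with a filter, the adjusted p of *Bnip3* ranged from 0.250 to 0.895. The count of genes called in the whole table, 6, became 2 with a pseudocount of 1, 2 with 0.01, 2 with a mean FPKM of at least 1, 2 without a trend, 14 with voom, 1 with the *Xist* covariate and 0 without any of the 4 libraries in turn. A pseudocount of 1 moved the log2 folds of *Plaat1* (0.25), *Epas1* (-0.43), *Dffa* (-0.14), *Dffb* (0.15) and *Pla2g4a* (0.24) by over 1.5 times. The median-ratio factor was the same in all 4 libraries, so that rescaling could not change an order. In reads, without correction for length, 2 positions of the level order differed.

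Same-numbered libraries showed no shared deviation from their group means (the correlation was -0.0051 across 15997 genes, which are not independent). A value near 0 cannot exclude that the replicate numbers pair the pools. With the replicate block 3 genes were called and 0 of the 6, with *Bnip3* at a log2 fold of 0.45 and a limma adjusted p of 0.828. Leaving out each library gave log2 folds of 0.0070 to 0.33 for *Dnase2b*, -0.10 to 0.052 for *Bnip3l*, 0.40 to 0.50 for *Bnip3*, -0.023 to 0.13 for *Fundc1*, 0.26 to 1.18 for *Plaat1* and 0.11 to 0.25 for *Plaat3*. The sign turned for *Bnip3l* without control replicate 2 and for *Fundc1* without control replicate 1. Among other named genes the sign also turned for *Aen* (-0.015 to 0.23), *Fkbp8* (-0.058 to 0.031), *Gabarapl1* (-0.068 to 0.26), *Gabarapl2* (-0.062 to 0.012), *Maf* (-0.089 to 0.089), *Ndrg1* (-0.012 to 0.19) and *Prox1* (-0.15 to 0.0016) when 1 library was left out, and for *Maf* with scaling to total reads (-0.031) or to reads outside crystallins (-0.012). Without 1 library the log2 fold ran from 0.089 to 0.27 for *Hsf4*, 0.22 to 0.47 for *Optn*, 0.19 to 0.40 for *Sqstm1*, 0.16 to 0.46 for *Dffb*, -0.34 to -0.14 for *Dffa*, 0.14 to 0.35 for *Lypla2*, 0.0055 to 0.25 for *Pafah1b3*, -0.49 to -0.018 for *Lmnb1* and -0.18 to -0.067 for *Pink1*. The cause was not tested.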
